A study of Rattus norvegicus with 4 samples.

Results

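The untreated state of cultured rat cortical neurons is described here from the 2 control arrays of a series of 4. Those arrays, named control 1 and control 2 after their titles, measured RNA from cortex of rat embryos at day 17, cultured for 14 days in Neurobasal medium with the B27 supplement and then given phosphate-buffered saline for 4 h. The other 2 arrays, from cultures given 25 mM KCl for the same 4 h, are not described. The titles and the treatment protocols set the groups, while the description label is the same for all 4 samples and calls them not activated. No sort is named in the labels, and in such bulk RNA fewer cells of a type and less RNA per cell cannot be told apart. Nothing in the labels says whether the 2 control samples came from separate cultures, so the spread between them may be technical.

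The array was built for neurobiology and the table used here holds 1263 probe sets beside the maker's controls. Of these, 1137 carried 1 gene symbol and covered 720 genes, and each gene entered through the probe set with the highest mean intensity. Intensities are in the arbitrary linear units of the deposited table. An intensity depends on how well a set of probes binds as well as on how much transcript is present, and it has no scale of transcript length, so the orders given below are orders of brightness, not of abundance.

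Background was read from 19 probe sets for transcripts of Bacillus subtilis and yeast, which rat RNA does not contain. The brightest of them read 73.7, and this value is called the limit. It was set by 1 probe set on control 1, where the median of the 19 was 6.3. On control 2 the brightest read 36.9 and the median 12.3. A gene is called above the limit where both arrays exceeded 73.7 and at or below it where neither did.

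Cortical neurons signal with glutamate and GABA. Glutamate acts on ionotropic receptors, which are ion channels built from several subunits, and on metabotropic receptors, which act through G proteins. GABA acts on chloride channels and on a G protein-coupled receptor made of a pair of subunits. Which subunit genes are switched on sets how fast a synapse acts and what drugs it responds to, and in the cortex many of these genes change over during development.

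Of the 720 genes, 435 were above the limit (60.4%), 234 were at or below it (32.5%) and 51 lay on either side of it on the 2 arrays. The median gene had a mean intensity of 144, 113 genes had a mean over 1000 and 29 over 5000. The 20 brightest genes held 36.6% of the summed intensity. Of the genes in the lists used below, 74 of 127 receptor genes were above the limit (58.3%), 64 of 98 channel and pump genes (65.3%) and 37 of 53 synaptic genes (69.8%).

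**Figure D1:**
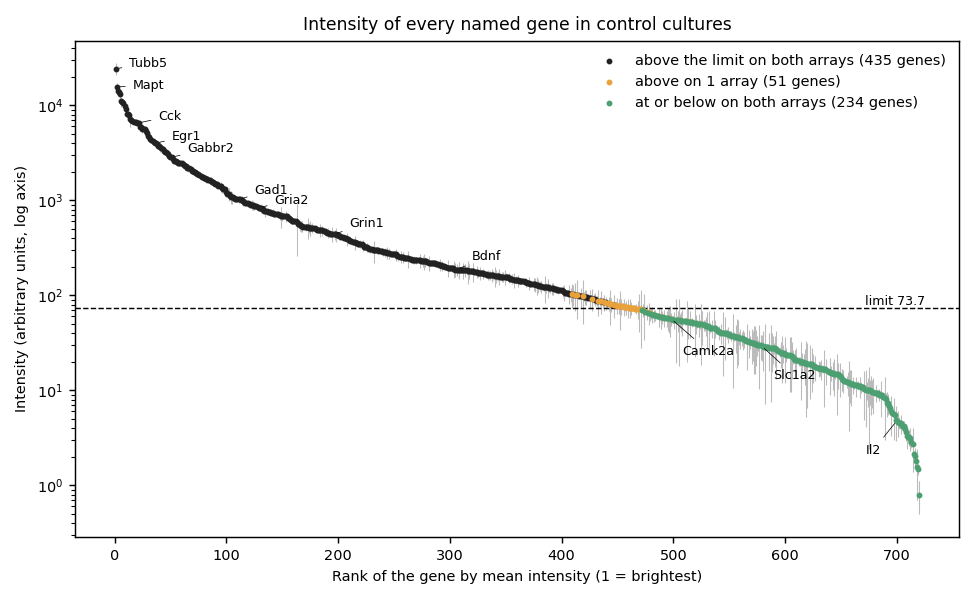
Mean intensity (log axis) of each of the 720 genes on the control arrays against its rank, with a grey line from the lower to the higher array. The curve runs from Tubb5 at 24279.8 down to a gene with a mean of 0.8 and crosses the limit of 73.7 (dashed), with 435 genes above it on both arrays.

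The 20 brightest genes had varied roles. Tubb5, which encodes a beta-tubulin of microtubules, ranked first and read 20831 on control 1 and 27729 on control 2 (mean 24279.8 ± 4878, SD, n = 2 arrays). Its 3 brightest sets carry a suffix for probes that may bind several transcripts, and its only other set had a mean of 649, so its first place rests on them. Mapt, the gene of the microtubule-binding protein tau, followed at 14312 and 17103. Atp1b1, which encodes a beta subunit of the sodium pump, read 13065 and 15066. Nnat, an imprinted gene of developing brain that encodes the small membrane protein neuronatin, read 12552 and 15303. Hsp90ab1, a chaperone gene, read 11746 and 14365. The first of these stood clear of the second on both arrays, and the ranges of the following 4 overlapped their neighbours.

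Places 6 to 13 went to Gnas, which encodes the G protein subunit that stimulates adenylyl cyclase (9709.7 and 12303), Ckb, the brain-type creatine kinase (9974 and 11626), and Mif, a secreted cytokine also made by neurons (10799 and 10620.3). Gap43, a growth cone protein gene, read 9271 and 10309.8. The ribosomal protein gene Rpsa read 8722 and 9677, and Rack1, whose product is a ribosome-bound scaffold, 7331 and 8971. Ctxn1, which encodes cortexin, a membrane protein of cortical neurons, read 7861 and 8224, and Grina, which encodes a membrane protein linked to NMDA receptors, 7339 and 8444. The range of Mif lay clear of that of Gap43, and the other neighbours among these 8 genes overlapped.

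The last 7 of the 20 brightest were Eef2, the translation elongation factor gene (5965 and 8579), Thra, a thyroid hormone receptor gene (6893 and 7127), Eno2, the neuron-specific enolase gene (6792 and 6875), and Fez1, which encodes a kinesin adaptor of axon growth (6662 and 6707). They also included Prnp, the prion protein gene (6487 and 6879.6), Capns1, the small subunit of calpains (6405 and 6834), and Camk2b, which encodes a calcium- and calmodulin-dependent kinase subunit (6513 and 6639.9). Cck, a neuropeptide gene, came next. Of the 19 neighbouring pairs among the 20, 15 had ranges that overlapped, so the order within the group is loose. The brightest set of Thra stood far above the dimmest of its 4, whose mean was 66.

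The arrays drifted apart at the bright end. Of the 20 brightest genes, 19 read higher on control 2, by up to 1.44-fold. Over the 29 genes with means above 5000 the median ratio of control 2 to control 1 was 1.10, against 0.984 over the 435 genes above the limit. The 9 probe sets for bacterial and phage transcripts that the standard protocol adds to the hybridization were also brighter on control 2, by 1.16- to 1.88-fold, and the 6 control sets for beta-actin and Gapdh by 1.20- to 1.36-fold. The part of this drift in the order of the brightest genes was not tested beyond quantile normalization, under which all 20 remained among the first 20.

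Apart from this drift the arrays were close over the probe sets above the limit. Across 1263 probe sets the log2 intensities had a Pearson r of 0.97 and a Spearman rho of 0.97, given as a description since probe sets on 1 array share its RNA and scale. The SD of the log2 difference was 0.28 over the 699 probe sets above the limit and 1.01 over the 478 at or below it. The Spearman rho was 0.98 above the limit and 0.71 at or below it, so the order of dim values was looser but partly shared. The SD was 0.33 for sets above the limit with means up to 300, 0.28 from 300 to 1000, 0.16 from 1000 to 5000 and 0.14 above that. Of the 435 genes above the limit, only Mt2A, a metallothionein gene that metals and stress induce, differed more than 2-fold, at 924 on control 1 and 261 on control 2 (3.54-fold). The related Mt1 read 462 and 432 and Mt3, the brain form, 2608 and 2532. The 3′ to 5′ ratio of the Gapdh controls, which rises as RNA degrades, was 1.17 and 1.23, and that of hexokinase 2.25 and 2.00.

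**Figure D2:**
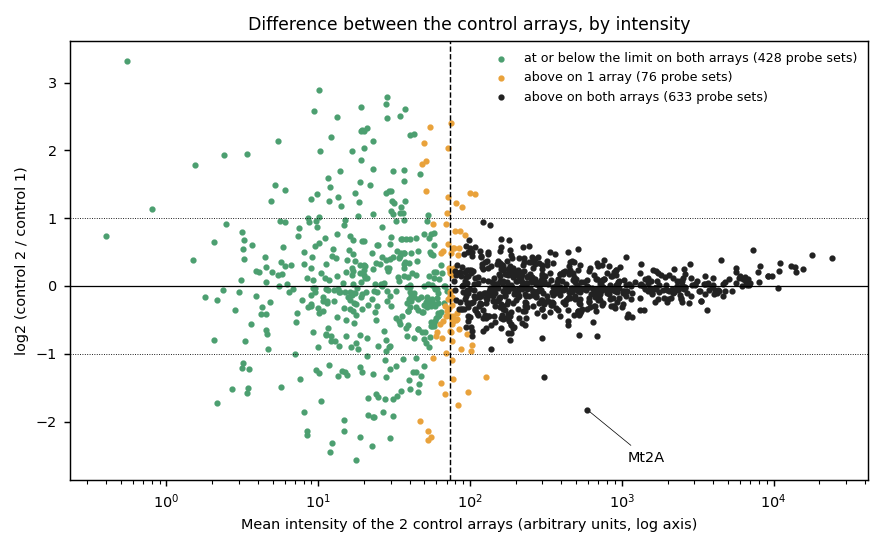
Log2 ratio of control 2 to control 1 for the 1137 probe sets with 1 symbol, against their mean intensity (log axis), coloured by their side of the limit of 73.7 (dashed line) with dotted lines at 2-fold. The points form a narrow band above the limit that bends upward at the bright end, with Mt2A below it, and fan out below the limit.

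A larger uncertainty than the arrays lay in the choice of probe set. In 276 genes with several probe sets, the brightest exceeded the second by a median of 2.21-fold and the dimmest by a median of 3.74-fold. In 74 of them the sets lay on both sides of the limit. These folds are between probe sets for 1 gene on the same arrays, so they give a yardstick for folds between genes. Of 36 families with at least 2 measured genes, the first and second gene had ranges that did not overlap in 34, but in 14 only was the fold between them above 2.21. A family here holds the listed genes that have a probe set with their symbol, others were not analysed here, and first place means first among those. With the dimmest set of each gene in place of the brightest, 17 of the 36 families had another gene first. Among the 17, the leads of Gabra5, Drd3, Kcnh3, Syt4, Nrxn2, Ntrk2, Pdgfa and Egr1 passed to Gabra2, Drd5, Kcnh2, Syt5, Nxph1, Cntfr, Igfbp2 and Junb. Kcnj4 gave way to Kcnk1 with the dimmest set and with the median set.

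Neuron markers were bright. Of 10 measured, 9 were above the limit (90%, against 60.4% of all genes) and 1, Nefh of the heavy neurofilament, read 63 and 110.0. Their summed intensity was 46732 on control 1 and 50824 on control 2. Beside Mapt, Gap43, Eno2 and the vesicle genes given below, Nefl, the light neurofilament gene, read 2606 and 2586, Nefm, the medium form, 1795 and 1520.2, and Map2, a dendritic microtubule protein gene, 2406 and 2622. The 5 probe sets of Map2 ran down to a mean of 42.5.

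Markers of other cells were mixed. Of 7 astrocyte markers, 5 were above the limit (71.4%, against 60.4% of all genes), and the list summed to 5484 and 5220. Gfap, the usual astrocyte marker, was not analysed here. Apoe, the main apolipoprotein of brain, read 2700.2 and 2298. Glul, the glutamine synthetase gene, read 1699 and 1902, S100b 460.1 and 488, the glutamate transporter gene Slc1a3 454 and 334, and Vim of the intermediate filament vimentin 100.1 and 137. The gap junction gene Gja1 (32.9 and 41.1) and Slc1a2, the main astrocytic glutamate transporter gene of mature cortex (38.2 and 20.4 on the brightest of 3 sets), were at or below it. Apoe and Glul are also made by other cells. A share of astrocytes in the cultures was not tested.

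Of 6 oligodendrocyte lineage markers 2 were above the limit (33.3%, against 60.4% of all genes). These were the myelin-associated glycoprotein gene Mag at 280.3 and 290.1 and Cnp, an enzyme of myelin, at 174 and 199. The defining Mbp (37.5 and 12.1), Mog (67.6 and 26.9), Pdgfra (57.5 and 46.3) and Sox10 (2.3 and 2) were not above it. The list of 6 summed to 619.5 and 577. All 5 microglial and immune markers, Itgam, Ccl2, Il1b, Tnf and Ccl3, were at or below the limit, as were 32.5% of all genes. The brightest was Itgam at 22.9 and 37.6, and these 5 summed to 89.6 and 91.1. Of 3 endothelial and fibroblast markers, which summed to 405 and 436, Slc2a1, a glucose transporter gene, read 298 and 329 and Vcam1 76.9 and 80.9, and Icam1 was at 30.7 and 26.4. Nes, the progenitor filament gene nestin, read 194 and 189.8. Of these markers S100b, Slc1a3, Mag, Vcam1 and Nes also had a set at or below the limit.

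Of 11 markers of neurons outside the cortex, 4 were above the limit (36.4%, against 60.4% of all genes). They were Slc18a3, the vesicular acetylcholine transporter gene (185 and 184), Avp, the vasopressin gene (180.0 and 181), Th, the rate-limiting enzyme of catecholamine synthesis (173 and 140.0), and Chrna1, a muscle-type nicotinic subunit gene (127 and 103). Slc6a4 and Slc6a3, the serotonin and dopamine transporter genes, exceeded it on control 1 alone, at 146 and 90.7 against 49.4 and 61.3 on control 2. The cerebellar granule cell subunit gene Gabra6, Oxt of oxytocin, Tph1, the sensory sodium channel gene Scn10a and Dbh were at or below it, with means from 61.1 down to 5.7. The list summed to 1048 and 829. An intensity between the limit and 200 thus also occurred for genes that other tissues are known for. Outside this list such genes read higher still, as did Chrng of embryonic muscle (368.5 and 396) and Cngb1 of sensory cells (420.5 and 613), described below.

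The proximal promoters of bright and dim genes differed in their content of CG pairs, which most vertebrate promoters of broadly used genes are rich in. RefSeq promoters in build GRCr8, from 250 bases before the start to 50 after it, were matched by gene identifier to 557 of the 720 genes. The median number of CG pairs was 26.5 in the 100 brightest genes (72 matched) and 10 in the 100 dimmest (78 matched), with 17 over the array and 7 over all 27457 promoters. The median GC content was 65.2% in the bright group and 56.7% in the dim group. The groups were formed by rank, and the values are descriptions with no test. The promoters below show the contrast. That of Camk2b holds the most CG pairs among the 100 brightest (59, in capitals), that of Il2, the T cell growth factor gene at a mean intensity of 4.8, holds 1 (in capitals), and that of Sst, a bright neuropeptide gene with 11, carries the cAMP response element TGACGTCA (in capitals).
Camk2b, GRCr8 chr14:85147895-85148194, minus strand: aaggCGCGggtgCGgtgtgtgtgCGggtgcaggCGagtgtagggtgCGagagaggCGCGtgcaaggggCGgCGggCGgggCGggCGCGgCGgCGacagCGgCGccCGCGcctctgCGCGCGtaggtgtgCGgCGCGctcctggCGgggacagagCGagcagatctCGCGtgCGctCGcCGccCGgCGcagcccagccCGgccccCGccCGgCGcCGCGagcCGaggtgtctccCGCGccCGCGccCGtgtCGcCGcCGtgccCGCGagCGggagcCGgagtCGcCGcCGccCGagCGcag
Sst, GRCr8 chr11:90461296-90461595, plus strand: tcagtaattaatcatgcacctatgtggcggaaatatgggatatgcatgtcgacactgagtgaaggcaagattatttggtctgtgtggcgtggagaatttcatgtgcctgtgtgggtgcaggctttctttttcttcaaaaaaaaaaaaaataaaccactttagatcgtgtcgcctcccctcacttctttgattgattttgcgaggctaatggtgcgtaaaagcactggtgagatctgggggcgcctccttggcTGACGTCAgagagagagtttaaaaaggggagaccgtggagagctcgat
Il2, GRCr8 chr2:121937623-121937922, minus strand: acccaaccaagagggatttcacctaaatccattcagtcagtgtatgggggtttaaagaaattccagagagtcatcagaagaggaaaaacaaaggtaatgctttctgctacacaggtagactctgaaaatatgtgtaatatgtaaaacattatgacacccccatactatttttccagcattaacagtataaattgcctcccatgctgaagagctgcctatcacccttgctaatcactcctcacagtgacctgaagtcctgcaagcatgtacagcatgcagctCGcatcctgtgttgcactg

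The element TGACGTCA reads the same on both strands and is the site that CREB, a factor activated by cAMP and calcium, is known to bind. It stood in 6 of the 72 matched promoters of the 100 brightest genes (8.33%), namely those of Hsp90ab1, Mif, Eef2, the G protein gene Gnao1, Sst and Syn1. It stood in 2 of the 78 of the 100 dimmest (2.56%), in 18 of the 557 on the array (3.23%) and in 1.91% of all promoters of this length. The contrast was smaller by side of the limit. The element stood in 13 of 328 promoters of genes above it (3.96%) and 5 of 186 of genes at or below it (2.69%). The letters TATAAA, searched on both strands, stood in 12.5% of the bright group, 14.1% of the dim group and 14.3% of all promoters. Some bright genes had few CG pairs. Gnb1, a G protein gene with a mean of 2162, had 0 CG pairs in this window and Map2 had 1. A match describes letters and no binding.

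Among the AMPA receptor genes, which encode the channels of fast excitatory transmission, Gria2 and Gria1 were brightest. Gria2, whose subunit keeps calcium out of the channel, read 899 on control 1 and 783 on control 2 (mean 841 ± 81.7). Gria1, the subunit gene linked to synaptic plasticity, read 671 and 625 (648 ± 32.9). Their ranges did not overlap, but the fold of 1.30 lay within that between probe sets of 1 gene. Gria3 read 136 and 141 and Gria4 78.7 and 69, on either side of the limit.

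Of the kainate receptor genes, whose channels tune excitability and release, 1 stood out. Grik5, a high-affinity subunit gene whose product forms channels only with other kainate subunits, read 2472 and 2507 (2489.6 ± 25). That was 7.78 times the mean of Grik4, the other high-affinity subunit gene, at 285 and 354. Of the low-affinity subunits that can form channels alone, Grik2 read 129 and 184, while Grik3 (55.3 and 49.6) and Grik1 (63 and 36.6) were at or below the limit. The delta receptor gene Grid1 read 234 and 242.

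All 6 NMDA receptor genes measured were above the limit, as were 60.4% of all genes. Grin1, the subunit that every NMDA receptor needs, read 468 and 412 (439.9 ± 39.5). Grin2b, the subunit that prevails in early cortex, read 339.5 and 305, and Grin2a, which gains ground during maturation, 190.0 and 158. Grin3a read 262 and 179, Grin2d 158 and 217 and Grin2c, best known from cerebellum, 161 and 166. From Grin3a downward each gene's range overlapped that of the next. The order of Grin1 and Grin2b turned round when the median of the probe sets of a gene was used, since the 4 sets of Grin1 ran from 439.9 down to 44.5. The second set of Grin2a had a mean of 18.8.

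Among the metabotropic glutamate receptors, Grm7 and Grm4, presynaptic receptors that lower release, led with ranges that overlapped. Grm7 read 552 and 574, with 1 of 3 sets at or below the limit, and Grm4 647 and 391, so that Grm4 was first on control 1 and Grm7 on control 2. Grm3, which glia also use, read 236 and 154, and Grm5, a postsynaptic receptor coupled to phospholipase C, 209 and 176. Grm2 read 109 and 132. Grm6, the receptor of retinal bipolar cells, at 67.2 and 67.5, and Grm8, at 25.9 and 26.1, were at or below the limit.

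GABA-A receptor channels are built from alpha, beta and gamma or delta subunits. Gabra5, an alpha subunit gene of extrasynaptic receptors in hippocampus and deep cortex, was brightest at 1344 and 978 (1161 ± 258), 2.25 times Gabra2. Gabra2 read 475 and 558, and the further alpha subunit genes Gabra3 244 and 256 and Gabra4, with a second set at or below the limit, 200.2 and 231. Of the beta subunits, Gabrb1 read 373 and 378 and Gabrb2, the form of many adult synapses, 79.1 and 90.4. Gabrd of the delta subunit, which serves tonic inhibition, read 301 and 289 and Gabrg1 of a gamma subunit 148 and 106.

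The remaining GABA-A genes were dim or unusual for cortex. Gabrr1, a rho subunit gene best known from retina, read 169 and 189. Gabre lay on either side of the limit, at 68.4 and 101. Gabra6 of the cerebellum, Gabrg3, Gabrr3, Gabrp and Gabrr2 were at or below it, the last at 5.5 on both arrays. Both GABA-B receptor genes were far above it. Gabbr2, the subunit that couples to G proteins, read 2994 and 2689, and Gabbr1, the subunit that binds GABA, 1195 and 1239. This order turned round with the median of their probe sets, of which there were 3 for Gabbr2 and 5 for Gabbr1. Of the glycine receptor genes, Glra2, the alpha subunit of embryonic neurons, read 462 and 383, while Glra1 of adult spinal cord and Glra3 were at or below the limit.

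**Figure D3:**
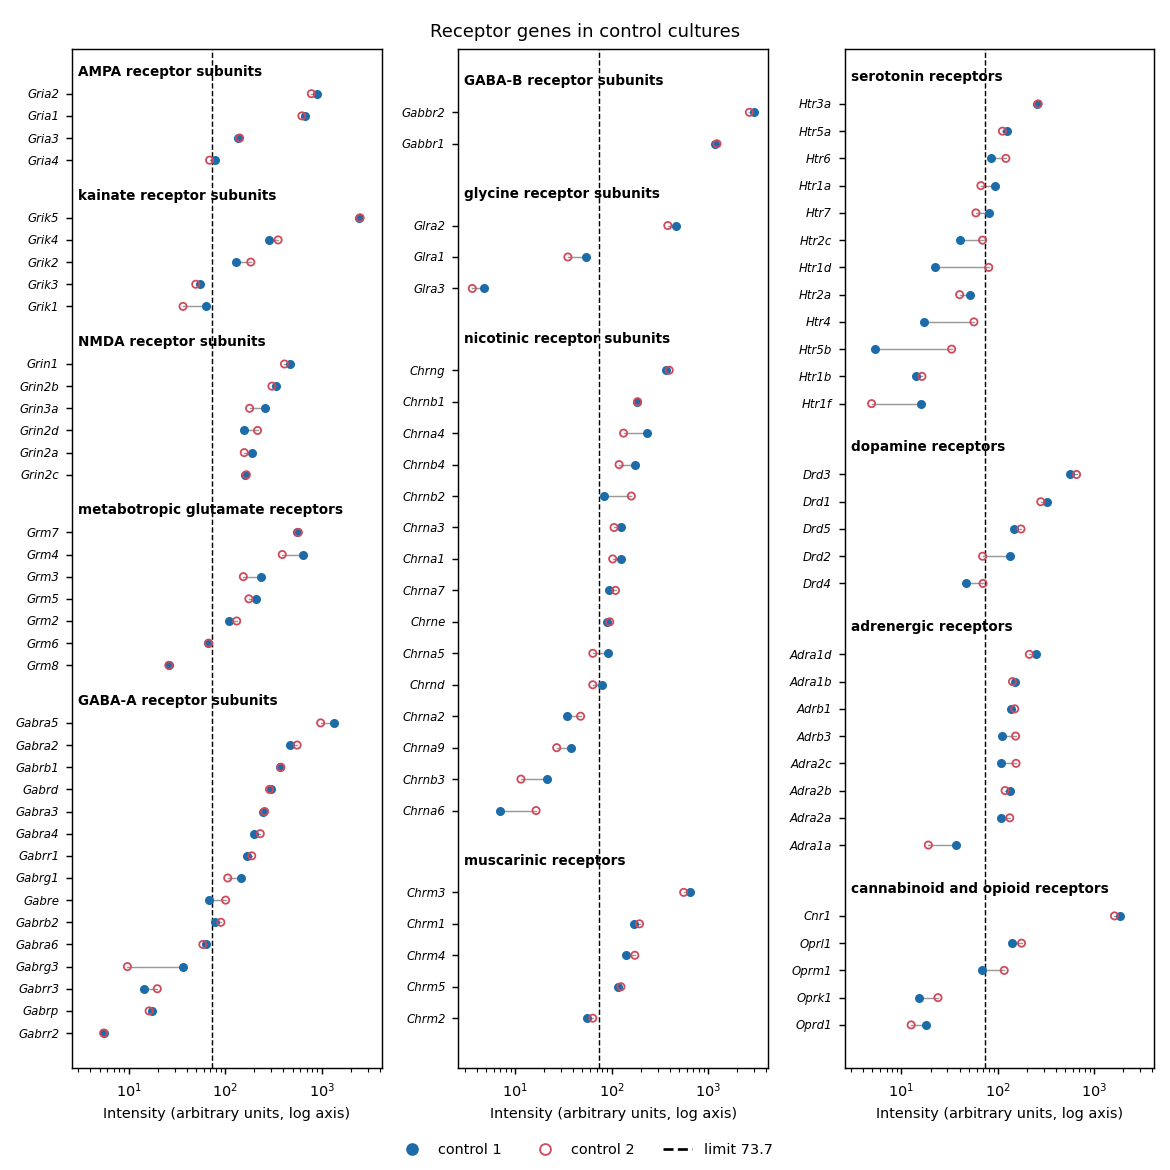
Intensity (log axis) of receptor genes by family, with control 1 as filled and control 2 as open circles and the limit of 73.7 dashed. Grik5, Gabbr2 and Cnr1 stand apart at the right, and 6 of the 12 serotonin receptor genes lie at or left of the limit on both arrays.

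Receptors for modulators were also measured. Of 5 muscarinic receptor genes, whose products sense acetylcholine, Chrm3 was brightest at 651 and 560.1, 3.29 times Chrm1 at 173 and 195. Chrm4 read 139.6 and 174 and Chrm5 117 and 125, and Chrm2, at 55.6 and 63.9, was at or below the limit. The second sets of Chrm3 and Chrm1 lay at or below it too, and with the dimmest set of each gene Chrm5 came first.

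Of 15 nicotinic subunit genes, 9 were above the limit (60%, against 60.4% of all genes), 2 straddled it and 4 were at or below it. Chrng, the embryonic muscle subunit gene, was brightest at 368 and 396 through its single probe set, whose suffix marks probes that may bind several transcripts. It was followed by the muscle gene Chrnb1 at 185 and 186 and by Chrna4, a main brain subunit gene, at 232 and 133. Its partner Chrnb2 read 83.3 and 160.4, and Chrna7, which forms channels alone, 93.8 and 110.0 on the brightest of 3 sets. Of the 14 neighbouring pairs in this family 11 overlapped. Those at or below the limit were Chrna2, Chrna9, Chrnb3 and Chrna6, genes of restricted sites such as hair cells and midbrain.

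Only 3 of 12 serotonin receptor genes (25%, against 60.4% of all genes) were above the limit, and 6 were at or below it. Htr3a, the ion channel of the family and a marker of a class of interneurons, read 251 and 262, and its other 2 sets were at or below the limit. Htr5a read 124 and 111 and Htr6 85.2 and 121. Htr1a, Htr7 and Htr1d straddled the limit. Htr2c, Htr2a, Htr4, Htr5b, Htr1b and Htr1f were at or below it, the last at 15.9 and 4.9, and 10 of 11 neighbouring pairs overlapped.

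Of the dopamine receptor genes, Drd3 read 558 and 653, but its second set had a mean of 22.9. Drd1, which raises cAMP, read 322 and 278, and Drd5 of the same class 146 and 173. A further set of Drd1 was at or below the limit. Drd2, which lowers cAMP, straddled the limit at 134 and 69.3, and Drd4 was below it. Of 8 adrenergic receptor genes 7 were above the limit (87.5%, against 60.4% of all genes) and within a narrow range. They ran from Adra1d (249 and 212, with a second set at or below the limit) through Adra1b (151 and 142) and Adrb1 (137 and 149) to Adra2a (106 and 133). Adra1a, at 37 and 19, was not above it. Of the 8, only Adra1d also exceeded 143 on both arrays, the reading of the brightest control probe set in antisense orientation. With the limit there, 47.5% of all genes were above it, so the excess of adrenergic genes rests on the lower limit.

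Cnr1, the cannabinoid receptor gene that cortical interneurons are known to express, read 1851 and 1616 (1733 ± 166), 11.0 times the nociceptin receptor gene Oprl1 at 139.6 and 176. Of the opioid receptors, Oprm1 straddled the limit (68.7 and 116 on the brightest of 4 sets) and Oprk1 and Oprd1 were at or below it. Among receptors for adenosine and ATP, 6 of 12 were above the limit (50%, against 60.4% of all genes). The ATP-gated channel gene P2rx2 led at 286 and 254, with 3 of its 5 sets at or below the limit. Adora3 (165 and 122, above it on 1 of 3 sets) and Adora2a (127 and 119) followed, with Adora1, an inhibitory receptor of cortex, at 127 and 80.2. P2rx3, Adora2b, P2rx1, P2ry1 and P2rx7 were at or below it.

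Peptide signalling was led by a few genes. Of 14 neuropeptide precursor genes 8 were above the limit (57.1%, near the 60.4% of all genes), and 2 were far brighter than the others. Cck, the cholecystokinin gene that cortical neurons of both kinds are known to express, read 6311 and 6729 (6519.9 ± 296). Sst, the somatostatin gene of a class of interneurons, read 5491 and 5199 (5345 ± 207), and its second set had a mean of 1505. The fold of 1.22 between them lay within the probe set yardstick. Tac1, the substance P precursor gene, read 765 and 591, overlapping Npy of neuropeptide Y at 602 and 598, and Pnoc of nociceptin read 548 and 513.

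Dimmer peptide genes included Nmu of neuromedin U (291 and 305), Avp and Penk of the enkephalins (191 and 150.2), the last 2 with a further set at or below the limit. Pdyn of dynorphin straddled it at 48.4 and 113. Crh, Oxt, Tac3, Calcb and Gal, genes of hypothalamic and sensory peptides among them, were at or below it. Vgf, a secreted peptide precursor gene, read 582 and 450.1. Genes of cognate receptors were above the limit for some of these peptides, and signalling between them was not tested. Sstr2 for somatostatin read 750.3 and 674 and Npy1r for neuropeptide Y 566 and 552, the 2 brightest of 22 peptide receptor genes, followed by Avpr1b at 269 and 275 on 1 of its 2 sets and Sstr4 at 221 and 223. The vasopressin receptor gene Avpr2 read 183 and 148, also on 1 of 2 sets. Of the 22, 10 were above the limit (45.5%, against 60.4% of all genes). Another 9 were at or below it, namely Nmbr, Tacr3, Agtr1b, Galr3, Npy5r, Vipr2, Calcr, Galr1 and Bdkrb2.

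Voltage-gated potassium channels repolarize the membrane and set firing patterns. Of 29 genes of this family 18 were above the limit (62.1%), a share near the 60.4% of all genes. Kcnh3, an ether-a-go-go-like channel gene of forebrain, read 2373 and 2489 (2431 ± 81.8), 6.11 times its relative Kcnh2 at 405 and 391, although the second set of Kcnh3 had a mean of 161. Kcnd3, whose channels carry A-type current, read 284 on both arrays through the brightest of 4 sets, and Kcnab1 of an auxiliary subunit 288 and 274. In 24 of 28 neighbouring pairs of the family the ranges overlapped. Kcnc2, a channel gene of fast-spiking interneurons, read 222 and 149 on the brightest of 4 sets, and Kcna1 186 and 134 and Kcnq3, of the M current, 148 and 134, each with a second set at or below the limit.

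The potassium channel genes at or below the limit were Kcnh7, Kcnh6, Kcnb2, Kcna2, Kcna3, Kcns1 and Kcnq1, the cardiac channel gene, the last at 5.4 and 6.1. Kcna2, which pairs with Kcna1 in mature axons, read 22.8 and 12.7. Among 20 inward-rectifier, leak and calcium-activated potassium channel genes, 9 were above the limit (45%, against 60.4% of all genes). Another 9 were at or below it. Kcnj4, a strong inward rectifier gene of forebrain, read 505 and 509, Kcnk1 of a leak channel 386 and 452 and Abcc9 of an ATP-sensitive channel 396 and 415. Kcnj10, the astrocytic rectifier gene, read 51 and 56.3, and with Kcnj8, Kcnj5, Kcnj16, Kcnn3, Kcnj2, Kcnj9, Kcnj6 and Kcnj13 was at or below it. Kcnmb1, Kcnj1 and Kcnma1, the large-conductance channel gene at 92.8 and 102, were above it on 1 set each, and all their other sets were not.

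Sodium channel genes showed the early forebrain forms on top. Scn2a, the channel of young axons, read 1126 and 1019 (1072 ± 76.2), Scn3a, an embryonic form, 766 and 667 and Scn1a, which inhibitory neurons rely on, 221 and 137. Scn8a, the channel of mature axons, read 98.4 and 77.7 on the brightest of 3 sets. The skeletal muscle gene Scn4a read 112 and 101 and Scn7a 102 and 80.5, each with a second set at or below the limit. Scn2b, an auxiliary subunit gene, and the sensory channel genes Scn11a and Scn10a were at or below it.

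Of 12 calcium channel genes 11 were above the limit (91.7%, against 60.4% of all genes). Cacna2d1, an auxiliary subunit gene and the target of gabapentin, read 2165 and 1829.6 (1997 ± 237). Cacna1b, the pore of N-type channels, which drive transmitter release, read 952 and 938 and Cacnb3 of a beta subunit 925 and 817. Cacna1a, the P/Q-type pore gene that prevails at mature synapses, read 460.3 and 507, the T-type gene Cacna1g 384 and 435 and the L-type gene Cacna1c 303 and 419. Cacna1d, a second L-type gene, read 202 and 152. Cacna1a, Cacna1c and Cacna1d had further sets at or below the limit, and the muscle gene Cacna1s, at 17.4 and 15.8, was there on all of its sets.

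Other channels and pumps included Asic2, an acid-sensing channel gene (1062 and 1069), Cngb1, a cyclic nucleotide-gated subunit gene of sensory cells (420.5 and 613, with 1 of 3 sets at or below the limit), and Asic1 (139 and 129.9). Cnga1 and Cnga4 were at or below it. Of the chloride channel genes Clcn3, an exchanger of endosomes, read 979.7 and 797, Clcn4 349.9 and 301 and Clcn7 139 and 121, while Clcn5, known from kidney, read 25.9 and 31. The sodium pump beta genes followed Atp1b1 at a distance, Atp1b2 reading 834 and 986 and Atp1b3 924 and 877, and the testis gene Atp1a4 14 and 9.1.

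Of calcium handling, the calmodulin genes Calm2 (5678 and 6139) and Calm3 (3989 and 4039) and Atp2a2, the calcium pump of the endoplasmic reticulum (2886 and 2904), were brightest. The plasma membrane pumps Atp2b1 and Atp2b2 read 855 and 785 and 749.8 and 689. Itpr1, the calcium release channel gene, read 222 and 215 on the brightest of 5 sets. Atp2a2, Atp2b1 and Itpr1 each had a set at or below the limit, and the muscle pump gene Atp2a1 was there on its only set, at 32.4 and 13.2.

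**Figure D4:**
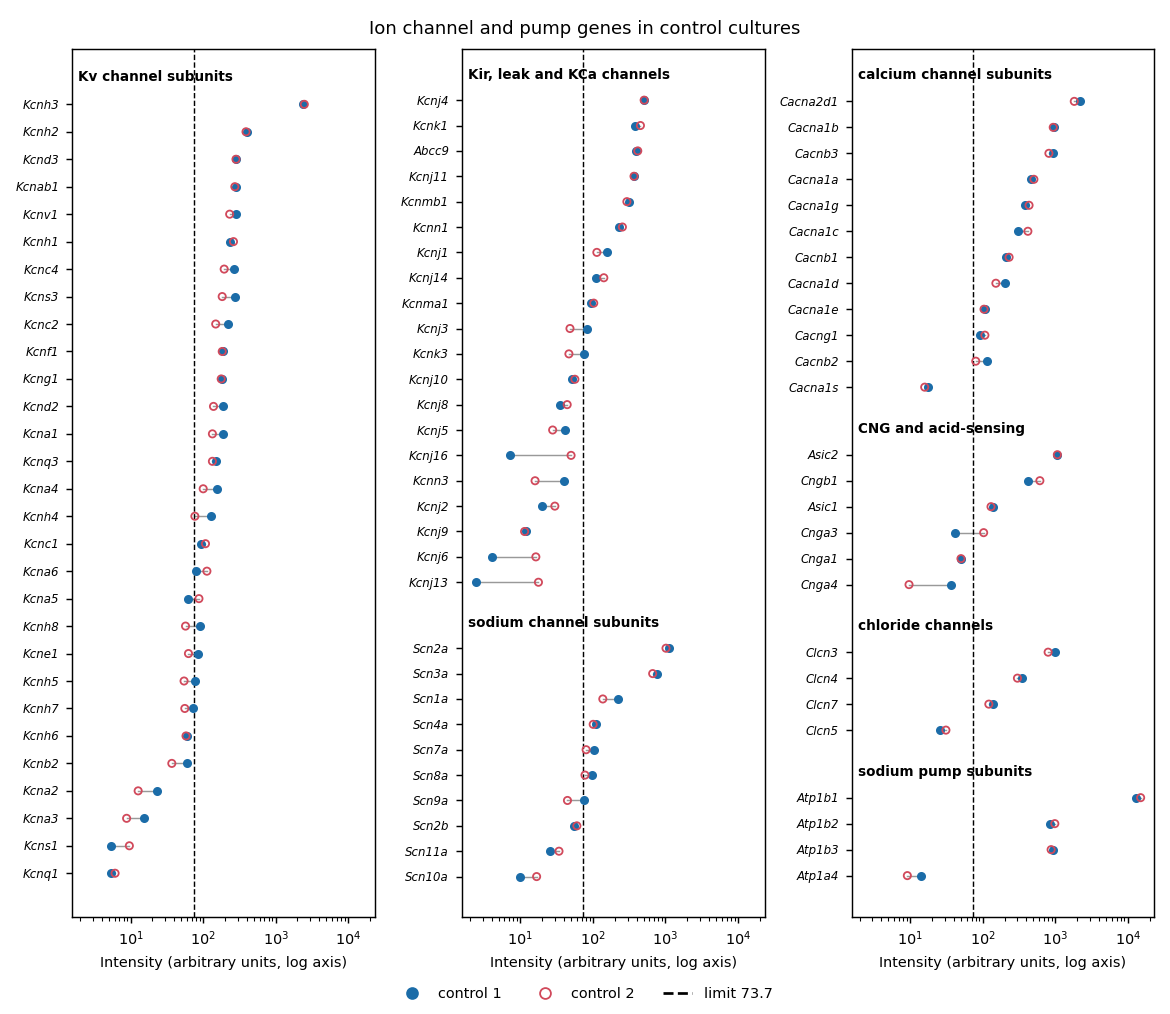
Intensity (log axis) of ion channel and pump genes by family, with control 1 as filled and control 2 as open circles and the limit of 73.7 dashed. Kcnh3 (mean 2431) and Atp1b1 (mean 14065) stand apart from the rest of their families, and all calcium channel genes other than Cacna1s lie to the right of the limit.

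Synaptic genes were among the brightest. Of the release machinery, Rab3a, the vesicle GTPase, read 4405 and 4235, Stx1a, the plasma membrane SNARE, 2749.6 and 2980.0 and Snap25, its partner, 2273 and 2132 with all 4 of its sets above the limit. Endosomal syntaxins were close behind, Stx7 at 2004 and 1768 and Stx12 at 1747 and 1759. Snap23, the form of Snap25 in other tissues, at 35 and 38.7, Stxbp2 and Stx3 were at or below the limit. The ranges of all 11 neighbouring pairs in this family were separate.

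Synaptotagmins, calcium sensors and relatives on vesicles, were measured for 10 of the 13 listed genes, and the order holds among those. Syt4, an activity-regulated member that binds calcium poorly, read 4094 and 3196 (3645 ± 635) and Syt5 2793 and 2598. Syt11 read 665 and 868 and Syt3 646 and 569. No other measured synaptotagmin gene was above the limit on both arrays. Syt9 and Syt8 straddled it and Syt6, Syt7, Syt2 and Syt10 were at or below it.

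Among vesicle proteins, Syp of synaptophysin read 4911 and 5260.0, 2.21 times the synapsin gene Syn1 at 2303 and 2306, followed by Syn2 at 1012 and 859.5. The late-appearing Syn3 read 199.7 and 256 and Syngr1 of synaptogyrin 203 and 191 on 1 of 3 sets. Sncb of beta-synuclein read 794 and 769.9 and Sncg of gamma-synuclein, a peripheral form, 9.8 and 9.2. Of presynaptic adhesion genes, Nrxn2 of a neurexin read 3028 and 3084, 7.43 times Nxph1, which encodes a neurexin ligand, at 419.9 and 403. Nrxn3 read 231 and 151. The dimmest of the 3 sets of Nrxn2 had a mean of 19.3. Of their postsynaptic partners Nlgn3 read 147 and 181, and Nlgn1 (55.3 and 42.5) and Nlgn2 (31 and 50) were at or below the limit.

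The postsynaptic list was led by Camk2b, followed by Nrgn of neurogranin, a calmodulin-binding protein of dendrites, at 3564 and 3065 and Camk2d at 2091 and 1977. The other sets of Camk2d, of which there were 4, had means from 103 down to 42.2. Dlg4, which encodes the scaffold PSD-95, read 1318 and 1325 and Dlg3 218 and 216. Camk2a, the kinase subunit that excitatory cortical neurons gain as they mature, read 47.7 and 65.7 on the brighter of 2 sets and was at or below the limit, as were the scaffold gene Grip1 (48.5 and 42.6) and Camk4 (40.5 and 40.1). Camk2b was thus read at 6513 and 6639.9 on arrays where Camk2a was not above background.

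**Figure D5:**
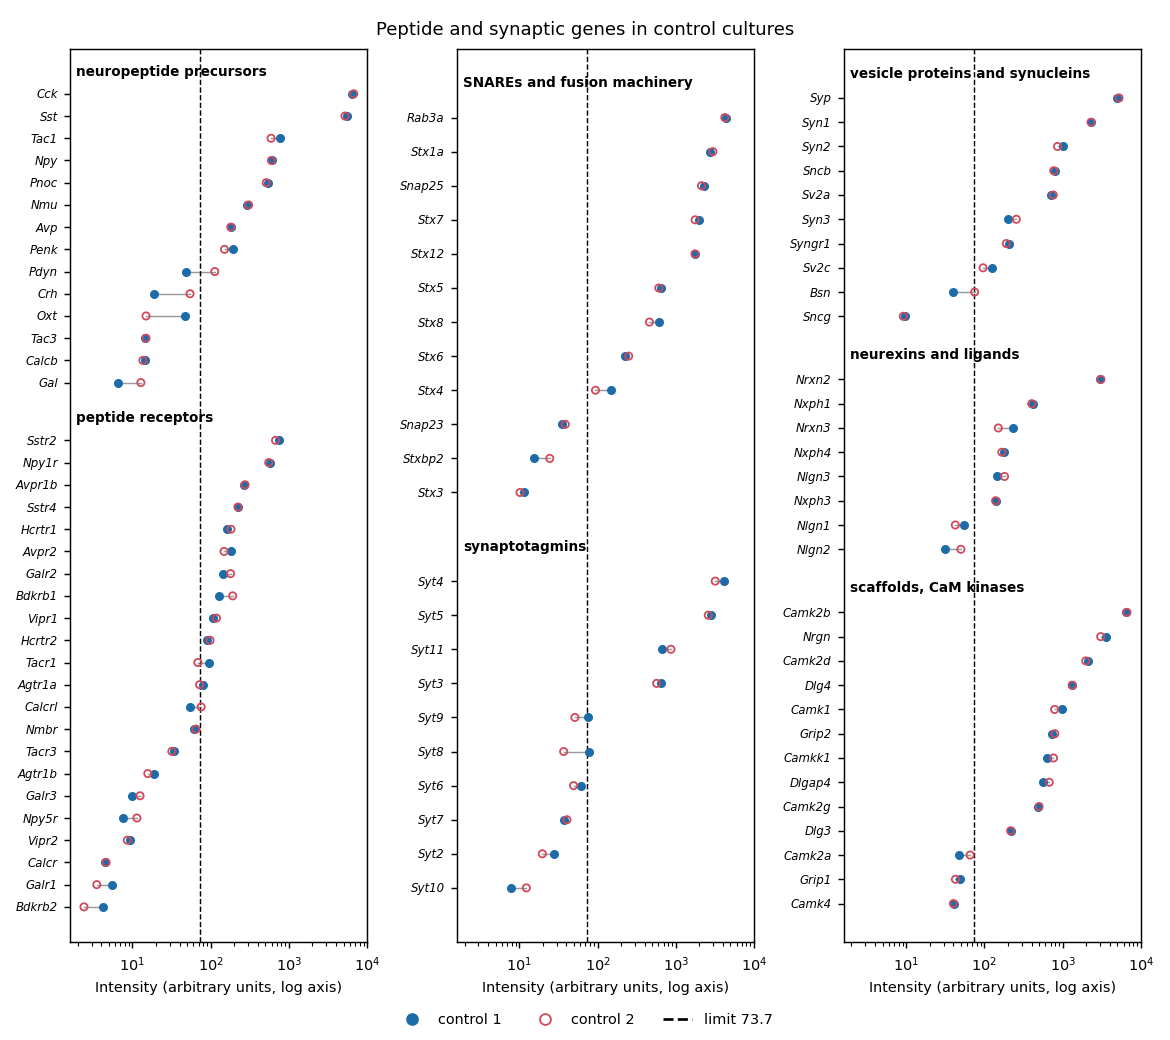
Intensity (log axis) of neuropeptide, peptide receptor and synaptic genes by family, with control 1 as filled and control 2 as open circles and the limit of 73.7 dashed. Cck and Sst stand apart from the other peptide genes, and Camk2b (6513 and 6639.9) lies far to the right of Camk2a (47.7 and 65.7).

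Among transmitter genes of inhibitory neurons, Slc32a1 and Gad1 were brightest. Slc32a1, the transporter that loads GABA into vesicles, read 1683 and 1646 and Gad1, a GABA-synthesizing enzyme gene, 1117 and 931. This order turned round with the median of the 2 sets of Slc32a1, the second of which had a mean of 100.6. Slc6a11 of GABA uptake read 205 and 231 and Abat of GABA breakdown 167 and 149, and Slc6a13, a meningeal transporter gene, was at or below the limit. Slc1a1, the neuronal glutamate transporter gene, read 1674 and 1759, overlapping Glul, and Glud1 of glutamate dehydrogenase 1228 and 1398. Of 11 genes of monoamine and acetylcholine metabolism 3 were above the limit (27.3%, against 60.4% of all genes). These were Maoa, which breaks down monoamines, at 1003 and 797, Slc18a3 and Th, while Maob, Tph1, Ache, Slc18a2 and Dbh were at or below it.

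Neurotrophins act through receptor kinases and a shared low-affinity receptor. Ntrk2, the receptor gene for brain-derived neurotrophic factor, read 1626 and 1521, although its second set, with a mean of 18.5, was at or below the limit. Ngfr of the low-affinity receptor read 757 and 751 and the neurotrophin gene Ntf3 569.6 and 479.8. Bdnf read 212 and 162 on the brightest of 7 sets, of which 3 were above the limit and 3 at or below it. Ntrk3, Cntf, Ntf4, Gdnf and Il6 were at or below it. Among 23 growth factor and receptor genes 14 were above it (60.9%, near the 60.4% of all genes). The brightest were Pdgfa at 3965 and 3926, Igfbp2 at 1100.1 and 1126 and Igfbp3 at 716 and 586. Fgf2, Pdgfra, Fgf5, Egf, Erbb4, Tgfb1 and Igfbp1 were at or below it. Igf2, Fgfr4 and Igf1 had sets on both sides.

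The cultures are called resting because no stimulus was given, yet genes that neuronal activity induces were measured above background. Of 11 activity-regulated transcription factor genes, 10 were above the limit (90.9%, against 60.4% of all genes). Egr1, an immediate-early zinc-finger gene, read 3843 and 4174 (4008 ± 234), 5.82 times the second gene. All 4 of its sets were above the limit, with means down to 165. Its brightest set carries a suffix for probes that may bind several transcripts, and the size of the lead rests on that set. The mean log2 intensity of Egr1 was 11.97, against 9.64 without such sets and 9.05 with the median of its sets. Nr4a3, an orphan nuclear receptor gene, read 860.5 and 517, Fos 719.5 and 646 and Junb 496 and 479. Nr4a1 read 288 and 260.0. Nr4a3 and Crem also had a set at or below the limit. Fosl1, at 6.9 and 6.7, was the 1 member at or below it. Of the effector genes that activity induces, Syt4 and Vgf are given above, Nptx2, a secreted pentraxin gene, read 262 and 212 and Ptgs2, the inducible cyclooxygenase gene, 81.7 and 78.2. Plat of tissue plasminogen activator, at 26.5 and 15.5, was at or below the limit. These values give a level and no rate, and what spontaneous firing the cultures had was not tested.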

How the data were processed

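Cultures were read on 1-colour Affymetrix arrays for neurobiology with biotin-labelled cRNA (5 µg of RNA per sample), per the labels. The authors deposited 1 intensity per probe set, on a linear scale. No source used here names the algorithm or the scaling. The 2% trimmed means of the control arrays (501.98 and 502.1) show that they had been brought to 1 level, so values were used as deposited.

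Symbols came from the platform annotation. Of 1137 probe sets with 1 symbol, 1132 matched RefSeq by gene identifier. The 8 with several symbols, the 118 with none and the 59 control sets were left out of the ranking. Computation used pandas 2.3.3 and SciPy 1.17.1. Values were compared between arrays as log2 of the deposited intensities. With 1 group of 2 arrays no test was run, and ranges of the 2 arrays are compared. The number of arrays limits precision. Ranking and calls were tested on simulated data.

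The genes, lists and limit were chosen with earlier results of these data known. Named are the 20 brightest genes, each list's 3 brightest and, where at most 12, those at or below the limit, all markers, genes over 3-fold apart, and listed genes with sets on both sides of the limit. Others, the promoter motifs and the promoters printed were chosen after values were seen. Alternatives covered the limit, the normalization, the probe set per gene, the arrays used and the symbols.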

Additional observations from a re-analysis of the deposited data

Results flagged for a closer look

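Some signal lay in probe sets that the ranking leaves out. Of the 118 probe sets with no symbol in the annotation, 63 were above the limit on both control arrays, 23 had a mean over 1000 and 4 were brighter than the gene in place 20. The brightest, AF007758_g_at, read 9763 and 12539.8. Of the 8 probe sets with several symbols, 3 were above the limit, among them D90258_s_at of Psma3 and Psma3l at 2514 and 2321. Of 15 control probe sets in antisense orientation, 7 were above the limit on both arrays, reaching 143, so an intensity between 73.7 and 143 was also read where no sense transcript was targeted.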

How the results depend on the processing

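The number of genes above the limit, 435 of 720, was 252 with the limit at the mean of the spiked bioB sets (244). It lay between 342 and 536 under all other alternatives with both arrays, the lowest with the limit at the brightest antisense control (143), added after seeing the data. With 1 array left out it ran from 463 to 559, the higher without control 1, where the limit was also lower, at 36.9. Of the 20 brightest genes, 18 to 19 remained with 1 array left out, 16 with the median probe set and 13 with the dimmest. Of 36 families, 35 to 36 kept their brightest gene with 1 array left out (without control 2, Grm4 came before Grm7), 26 with the median probe set and 19 with the dimmest. Without probe sets that may bind several transcripts, also added later, 30 did, and Chrnb1, Htr5a, Adra1b, Adora1, Slc1a1 and Slc18a3 led in place of Chrng, Htr3a, Adra1d, P2rx2, Glul and Maoa. Quantile normalization and median scaling changed no family's brightest gene. The SD of the log2 difference between arrays, 0.71 over all probe sets, was 0.28 over those above the limit. No paired analysis was possible because the arrays described form 1 group and no test was run.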

Other observations

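All 13 interleukin genes measured were at or below the limit, as were 32.5% of all genes, with means from 1.5 to 52.9. Il1b and Il6 among them, and Ccl2 and Ccl3 among the chemokines, also belong to lists described above. Of 8 chemokine genes 6 were at or below the limit, while Cx3cl1, the membrane-bound chemokine fractalkine that neurons are known to make, read 4896 and 4670.3 and ranked 30 of 720, and Cxcl6 read 141 and 145. All 4 G protein subunit genes, Gnas, Gnb2, Gnao1 and Gnb1, were bright, with means from 2162 to 11006. Of genes known to promote cell death, Bad read 3664 and 3764, Bax 3508 and 3566, Bok 1363 and 1466 and Hrk 746 and 645.5, all with every probe set above the limit. Others were dim, with Casp6 at 60.5 and 50.8, Faslg at 71 and 52.3 and Fas at 1.9 and 1.7, and Bcl2l11 was above the limit on 1 of 4 sets. Of the 3 caspase genes measured, 2, Casp2 and Casp1, were above the limit, with a highest mean of 457. Lep, the gene of the fat hormone leptin, read 1531 and 1456 on 1 probe set and had a mean of 52.6 on the other. These genes were singled out after their values were seen.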
